A study of Mus musculus with 10 samples.

Results

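The heavy chain variable (Ighv) segments of the antibody genes were examined in 10 mouse colon tumours, 5 from Ucp2+/+ (WT) and 5 from Ucp2-/- (KO) mice. A gene counted as an Ighv segment when its annotated symbol began with Ighv followed by a digit, and its family was the number after Ighv. The array held 94 such segments among 23111 named genes, in 16 families. All 94 were matched by gene number to RefSeq (assembly GRCm38.p6), and all lie on chromosome 12. The symbol rule uses no measured value, but the group was selected on the difference between KO and WT tumours and on the spread between tumours in an earlier look at the same arrays. Differences between genotypes in these segments are therefore given as descriptions, without a test.

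WT and KO mice were labelled as strain C57BL6/J. Tumours had been induced in both genotypes by AOM/DSS, that is azoxymethane, a carcinogen, together with dextran sodium sulphate, which inflames the colon, and were taken at week 15. Ucp2 encodes a carrier of the inner mitochondrial membrane, and the labels give neither the deleted part nor the cells in which it is lost. Age, sex, and whether each sample came from a mouse of its own are not stated in the labels, so the spread between samples may be partly technical.

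A B cell builds its antibody heavy chain by joining 1 V segment to a D and a J segment, upstream of constant-region genes that set the antibody class. Each B cell, and the plasma cells that descend from it, transcribes mainly the V segment it has joined, so the V segments seen in a tissue reflect which clones it holds and how much antibody RNA they make. In the colon most plasma cells make IgA, which is joined by the J chain and carried across the epithelium. Plasma cells contain very large amounts of antibody RNA, so V segment signal in a tissue sample comes mainly from them. In such bulk samples fewer cells of a type and less RNA per cell cannot be told apart.

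Values are log2 signals, 1 per gene and array, normalized with RMA by the authors. The median over all genes was between 5.83 and 5.92 in every array. The probe set that carries the gene number of Ucp2 had a mean of 11.30 ± 0.29 (SD, n = 5) in WT and 9.84 ± 0.12 in KO, and the highest KO value (9.97) was below the lowest WT value (10.84). The colon epithelium genes Krt20, Krt8 and Cdh1 had means of 10.97, 11.69 and 11.45 in WT and 11.19, 11.74 and 11.48 in KO. Olfactory receptor genes, most of which are silent outside the olfactory tissue, served as a guide to background, set at 5.14, below which 95% of 1088 such genes had their mean. V segments resemble each other in sequence, and a probe can bind RNA of a relative, so the value of any single segment is uncertain. Levels of different probe sets are not comparable, and only differences between arrays are set side by side.

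Ighv segments were among the most variable genes between tumours. The distance from the lowest to the highest array had a median of 3.89 log2 units over the 94 segments, against 0.48 over all genes. It reached at least 4 log2 units in 45 segments (47.9%), while 119 of all genes (0.515%) varied so widely. Since the segments were selected in part on their spread between these tumours, these values describe the selection and carry no test. Signal lay above the guide in all 10 arrays for 42 segments, in some arrays for 35 and in no array for 17.

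The other end of the group was flat. In 12 segments the 10 arrays lay within 1 log2 unit of each other, and none of these had a mean above the guide. They included Ighv13-1 (range 0.30), Ighv16-1 (0.54), Ighv3-3 (0.70), Ighv2-7 (0.96) and Ighv12-3 (0.88), the last known in mice from B-1 cell antibodies that bind phosphatidylcholine. Ighv5-2, the functional segment nearest the D segments and much used in early B cell precursors, was also below the guide in every array, from 3.46 in WT replicate 5 to 4.78 in KO replicate 8. The 82 other segments, including Ighv5-2, had ranges of at least 1.

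**Figure D1:**
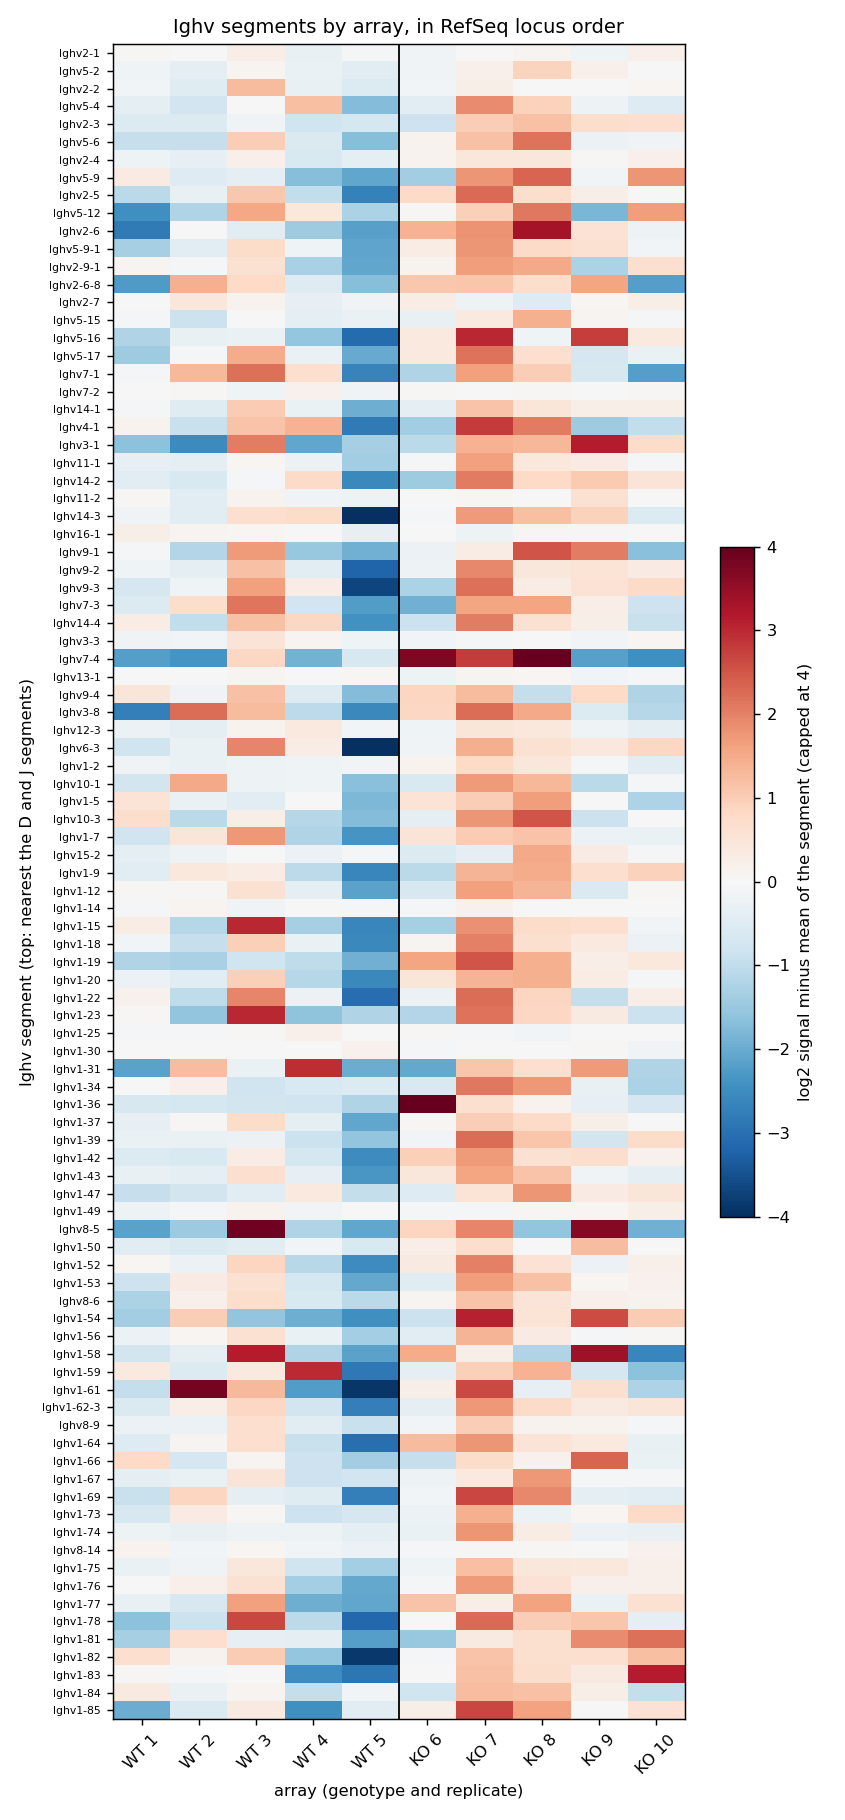
Each row is 1 of 94 Ighv segments in RefSeq order along the locus, each column 1 array, and the colour is the log2 signal minus the mean of that segment over 10 arrays, capped at 4. The column of WT replicate 5 is mostly blue and that of KO replicate 7 mostly red, pale rows are segments with little variation, and single dark cells such as Ighv1-36 in KO replicate 6 depart from their column.

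Most of the segments moved together from tumour to tumour. After subtraction of the mean of each segment, the median over the 94 was -0.25, -0.27, 0.49, -0.46 and -1.85 in WT replicates 1 to 5 and -0.10, 1.36, 0.69, 0.16 and -0.02 in KO replicates 6 to 10. WT replicate 5 was the lowest and KO replicate 7 the highest, and the genotypes overlapped through WT replicate 3, which exceeded 3 of the 5 KO tumours. The mean of these array medians was -0.47 ± 0.85 (SD, n = 5) in WT and 0.42 ± 0.61 in KO.

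The extremes came from the same arrays in many segments. WT replicate 5 held the lowest signal of 63 segments and KO replicate 7 the highest of 44, and in 30 segments WT replicate 5 lay at least 1 log2 unit below the next array. KO replicate 8 was highest in 17 segments and WT replicate 3 in 12. The number of segments above the guide was 45 in WT replicate 5, 62 to 70 in the other WT tumours and 65 to 75 in the KO tumours.

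**Figure D2:**
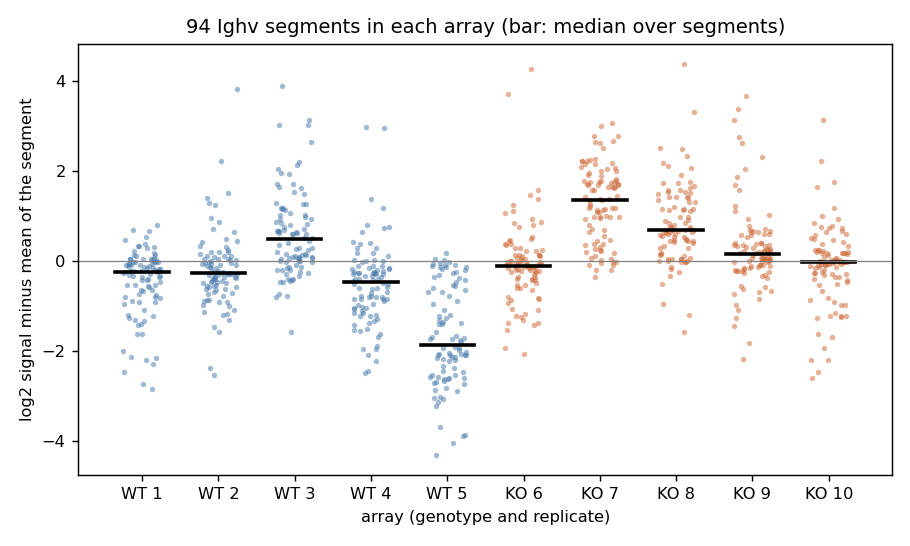
Points are the log2 signals of 94 Ighv segments in each array, minus the mean of the segment over 10 arrays, with WT in blue and KO in orange, and black bars are medians over segments. The bar of WT replicate 5 stands at -1.85 and that of KO replicate 7 at 1.36, with the other 8 between -0.46 and 0.69.

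Across the 10 arrays, a segment with a range of at least 1 correlated with the median of the other segments with a median r of 0.77, and 36 of 82 reached at least 0.8. The highest were Ighv1-18 (0.97), Ighv1-37 (0.97), Ighv9-2 (0.96) and Ighv1-62-3 (0.96), chosen after their values were seen. Without WT replicate 5 and KO replicate 7 the median r was 0.62. The shared profile of the array medians took up 47.5% of the sum of squares of these 82 segments around their means. The median correlation of pairs was 0.58 between families (2340 pairs) and 0.59 within them (981 pairs). Most pairs within families joined members of Ighv1, the largest family with 47 segments. The value within families therefore describes mainly Ighv1 and does not show how the smaller families behave. All these values are descriptions over 10 arrays, and segments share the arrays, their normalization and, within families, probe sequence.

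A smaller group of segments followed the others less closely. Among segments with a range of at least 1, r with the median of the others was under 0.5 in 7, the lowest being Ighv15-2 (0.23), below the guide in every tumour, and Ighv1-36 (0.25). The 3 lowest of all 94, Ighv1-30 (-0.55), Ighv1-25 (-0.32) and Ighv2-7 (-0.14), were flat and below the guide.

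Ighv1-36 stood at 8.10 in KO replicate 6 and at 3.17, 3.12, 3.08, 3.03 and 2.64 in WT replicates 1 to 5. The other KO tumours had 4.48, 3.95, 3.50 and 3.17 in replicates 7 to 10, so that KO replicate 6 alone was above the guide, by 3.63 log2 units over the next array. No other segment had such a gap, and the next widest was 1.96. In KO replicate 6 the median over all segments was -0.10, close to the middle of the arrays.

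Ighv1-83 was highest in KO replicate 10 at 10.30, followed by 8.34, 7.85, 7.52 and 7.13 in KO replicates 7, 8, 9 and 6. In WT it had 7.21, 7.09, 7.16, 4.66 and 4.27 in replicates 1 to 5. KO replicate 6 thus lay among the first 3 WT tumours, and the genotypes overlapped.

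Ighv1-59 was highest in WT replicate 4 at 9.54, against 6.93, 6.00, 6.95 and 3.69 in WT replicates 1, 2, 3 and 5. KO values were 6.14, 7.48, 7.94, 5.86 and 4.92 in replicates 6 to 10, between the extremes of WT. Ighv1-66 was highest in KO replicate 9 at 7.82, next to 6.29 in WT replicate 1 and 6.22 in KO replicate 7. In each of these segments a different tumour led, and KO replicate 7, the highest tumour for Ighv segments in general, led in none of them.

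Ighv1-61 had the widest range of all, 7.72 log2 units. It stood at 5.60, 10.39, 7.84, 4.33 and 2.67 in WT replicates 1 to 5 and at 6.78, 9.19, 6.22, 7.20 and 5.32 in KO replicates 6 to 10. WT tumours occupied both ends, with WT replicate 2 highest and WT replicate 5 lowest.

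Ighv7-4 and Ighv8-5 were each above the guide in 4 tumours and below it in the rest, with some intermediate values. Ighv7-4 had 9.48, 8.53 and 10.15 in KO replicates 6, 7 and 8, but 3.56 and 3.28 in KO replicates 9 and 10, and WT tumours had 3.55, 3.38, 6.59, 3.87 and 5.11. Ighv8-5 had 8.69 in WT replicate 3 and 8.46 in KO replicate 9, 6.76 and 5.66 in KO replicates 7 and 6, and 2.66 to 3.58 in the remaining 6 tumours. The 3 highest tumours were all KO for Ighv7-4, while the high tumours of Ighv8-5 came from both genotypes.

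**Figure D3:**
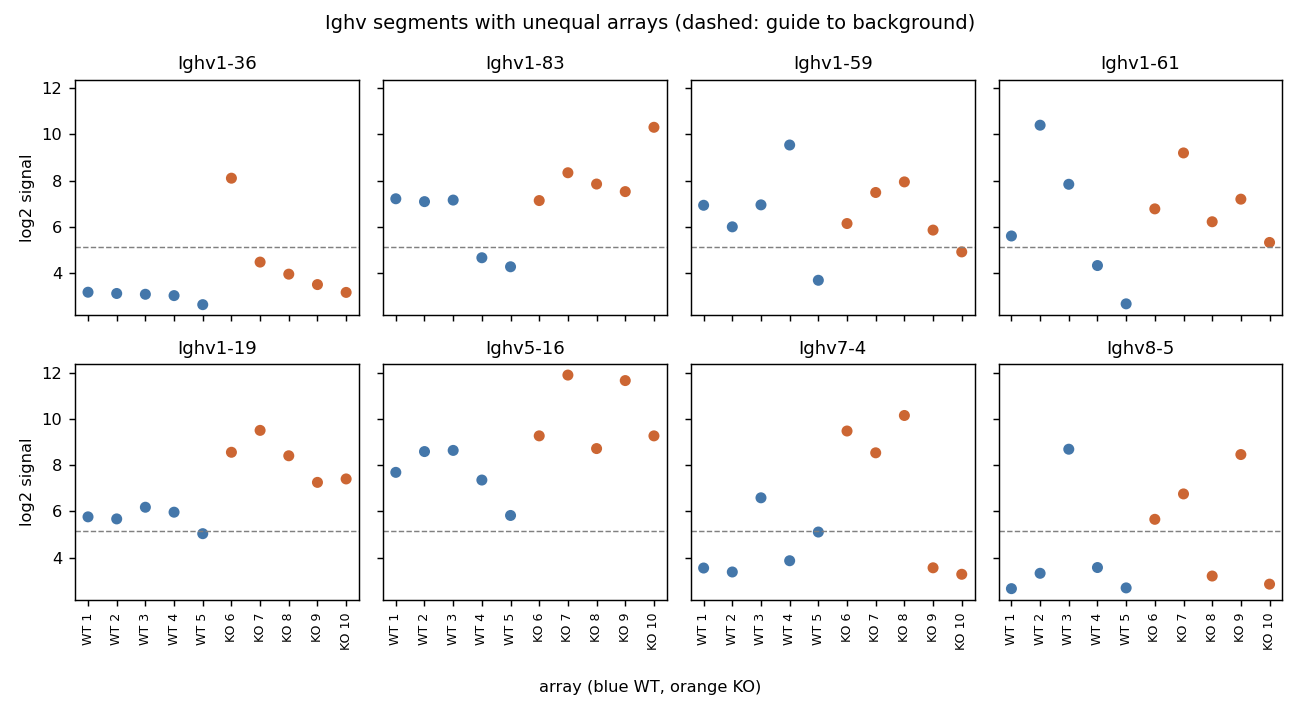
The log2 signal of 8 Ighv segments is plotted for each array, WT in blue and KO in orange, with a dashed line at the guide to background of 5.14. Ighv1-36 is above the line only in KO replicate 6 (8.10), while every KO point of Ighv1-19 and Ighv5-16 lies above every WT point.

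In all, 25 segments had 1 array at least 1 log2 unit above the next. That array was KO replicate 7 in 10 segments, KO replicate 8 in 6, WT replicate 3, WT replicate 4 and KO replicate 9 in 2 each, and WT replicate 2, KO replicate 6 and KO replicate 10 in 1 each. WT replicates 1 and 5 led no segment by this margin.

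Between genotypes, most segments had more signal in KO tumours. KO minus WT was positive in 86 of 94 segments (91.5%), against 42.2% of all genes, with a median of 0.86 log2 units (1.81-fold) against -0.02 over all genes. At least 2-fold more signal in KO was seen in 42 segments (44.7%) and in 99 of all genes (0.428%), and 0 segments had 2-fold less. Since the segments were selected on this contrast, these shares describe the selection and carry no test.

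Among the 23111 named genes, Ighv segments included, limma left 0 (0%) with an adjusted p below 0.05. Without adjustment, 1103 of them had a p below 0.05. The Ucp2 probe set was read separately by its gene number and has no limma result here, so these counts say nothing about Ucp2. With an unadjusted p under 0.05 and a minimum of 1.5-fold, 21 segments were higher in KO and 0 lower, where 0.368% and 0.0952% of all genes were. The selection of the segments on this contrast fixes that excess, and nothing is read from it. Leaving out WT replicate 5 gave 10 such segments, leaving out KO replicate 7 gave 12, and leaving out WT replicate 3 gave 42. Over all genes, counted in both directions, 63 passed without KO replicate 7 and 174 without WT replicate 3. With WT replicate 5 and KO replicate 7 both left out, a setting added after the data were seen, the median difference was 0.33 and 69 of 94 segments were positive. Just inside this threshold was Ighv8-6, with a difference of 0.83 ± 0.37 (SE), and just outside Ighv1-9, with 1.34 ± 0.62.

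WT and KO values were fully separate in 3 segments, all with KO above WT and making up 3.19% of the segments, where 0.329% of all genes had every KO array above and 0.506% every KO array below WT. They were Ighv1-19, Ighv5-16 and Ighv1-50, the last below the guide in all 10 tumours.

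Ighv1-19 had 5.77, 5.68, 6.18, 5.97 and 5.04 in WT replicates 1 to 5 and 8.56, 9.50, 8.41, 7.26 and 7.41 in KO replicates 6 to 10. All 5 WT tumours lay near the guide, and the lowest KO tumour, replicate 9, was above the highest WT tumour, replicate 3. The difference was 2.50 ± 0.39 (SE), the smallest SE among the 5 segments with the greatest differences.

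Ighv5-16 had 7.69, 8.59, 8.64, 7.36 and 5.83 in WT and 9.27, 11.89, 8.72, 11.66 and 9.27 in KO, in the same order of replicates. KO replicates 7 and 9 were far above the rest, and KO replicate 8 was barely above WT replicate 3. The difference was 2.54 ± 0.72 (SE).

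Ighv2-6 showed the greatest difference, 2.75 ± 0.68 (SE), or 6.74-fold. It had 4.62, 7.49, 6.99, 6.03 and 5.28 in WT and 8.84, 9.25, 10.79, 8.03 and 7.26 in KO, with an overlap of KO replicate 10 and WT replicate 2. Ighv1-54 (2.56 ± 0.80) and Ighv7-4 (2.50 ± 1.37) complete the first 5. Ighv1-54 was high in KO replicates 7 and 9 (8.77 and 8.32), like Ighv5-16, and WT replicate 2 (6.67) exceeded KO replicates 6 and 8 (4.85 and 6.23).

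A difference below 0 was found in 8 segments, of which 6 were flat. Ighv7-1, known from antibodies to phosphorylcholine, was the lowest at -0.58 ± 0.93 (SE). It had 8.99, 10.37, 11.28, 9.72 and 6.40 in WT and 7.85, 10.70, 10.04, 8.43 and 6.85 in KO, so WT tumours held both the highest and the lowest value. Ighv1-59 followed with -0.15 ± 0.94, and was 0.58 without WT replicate 4. Ighv3-3, Ighv13-1 and Ighv1-30 had differences of -0.09 to -0.06.

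The median difference was above 0 in all 8 families with 3 or more segments. Ighv1, by far the largest, had 47 segments, a median difference of 0.86 and 44 positive members. Family Ighv2 (9 segments, median 0.91, 8 positive) and family Ighv5 (9 segments, 1.18, all 9 positive) lie nearest the D and J segments. Of the 21 segments past the unadjusted threshold, 11 were of family Ighv1, 4 of Ighv5, 3 of Ighv2, and 1 each of Ighv3, Ighv8 and Ighv11.

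Among the smaller families, Ighv9 (4 segments, median 1.11) and Ighv14 (4 segments, 0.94) had only positive differences. WT replicate 5 held the lowest signal of all 8 of their members, and the median deviation there was -2.56 for Ighv9 and -2.51 for Ighv14, against -0.69 for Ighv2. Ighv9-3 ranged over 5.87 log2 units and Ighv14-3 over 5.74. The median of Ighv7 (4 segments) was 0.16, with members from -0.58 to 2.50. By median deviation KO replicate 10 was its lowest tumour (-1.51), closely followed by WT replicate 5 (-1.43). WT replicate 5 held the lowest signal of 2 of its 4 members.

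Ighv3 (3 segments) had a median of 1.14. Its member Ighv3-1 had 6.03, 5.12, 9.71, 5.57 and 6.34 in WT and 6.59, 9.03, 8.98, 10.79 and 8.40 in KO. WT replicate 3 stood apart from the other WT tumours there and exceeded 4 of the 5 KO tumours. The difference was 2.20 ± 0.91 (SE).

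Ighv8 (4 segments) had a median of 0.63, and the 2 segments of Ighv10 had 0.51 and 1.21, the latter for Ighv10-3. The 2 segments of Ighv11 had 0.90 (Ighv11-1) and 0.25 (Ighv11-2). Ighv11-2, which like Ighv12-3 is known in mice from B-1 cell antibodies to phosphatidylcholine, was above the guide in all tumours but varied little, from 6.99 to 8.05, and did not drop in WT replicate 5 (7.26). Of the 6 families with 1 segment each, Ighv6-3 had 1.26 ± 0.91 (SE; 0.34 without WT replicate 5), Ighv4-1 0.43 ± 1.02 (-0.23 without WT replicate 5) and Ighv15-2 0.36 ± 0.32. The flat segments of Ighv12, Ighv13 and Ighv16 were between -0.07 and 0.07.

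**Figure D4:**
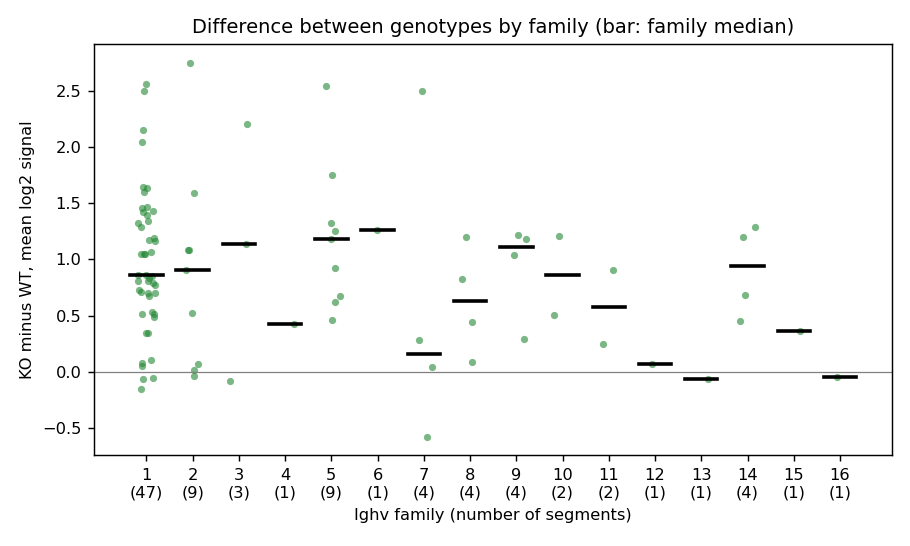
Points are KO minus WT differences of mean log2 signal, 1 per segment, by Ighv family with the number of segments in brackets, and bars are family medians. The medians of families Ighv1, Ighv2 and Ighv5 stand at 0.86, 0.91 and 1.18, and members of Ighv7 run from -0.58 to 2.50.

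The segments were also compared by their position along the locus. The 47 segments nearest the D and J segments had a median difference of 0.86 with 42 positive, and the 47 farther ones 0.85 with 44 positive. In WT replicate 5 their median deviations were -1.74 and -2.04, and in KO replicate 7 they were 1.35 and 1.37.

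RefSeq types 6 of the 94 segments as pseudogenes. Ighv1-25, Ighv1-30 and Ighv2-1 were flat, whereas Ighv7-1 and Ighv7-3 were above the guide in all 10 tumours. Whether that signal comes from these segments or from relatives their probes also bind was not tested. Without the 6, the median difference was 0.90.

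The constant-region genes, which give the antibody its class, were compared with the V segments across the tumours. Of 7 measured, 6 had positive differences, and 0 were higher or lower at unadjusted p under 0.05 (background 2.22% and 2.55% of all genes). With 1 tumour left out, 0 to 5 were higher (5 without WT replicate 3). Leaving out WT replicate 3 also gave 174 of all genes, in both directions, at unadjusted p under 0.05 and 1.5-fold, against 107 with all tumours. The counts of constant genes have no fold minimum, so this is not their matching share. The share of all genes with 1 tumour left out and no fold minimum is not given here, for these genes or for the gene lists below. Igha, of IgA, had 12.35, 12.49, 12.82, 12.24 and 10.95 in WT and 12.54, 12.94, 12.83, 12.70 and 12.56 in KO. WT replicate 5 was the lowest and KO replicate 7 the highest, as for the V segments. The difference was 0.55 ± 0.29 (SE; limma adjusted p = 0.910).

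The IgG genes varied more. Ighg2b had 7.31, 7.60, 11.08, 7.84 and 5.77 in WT and 10.29, 9.83, 10.39, 8.67 and 7.97 in KO, a difference of 1.51 ± 0.85 (SE). Ighg1 and Ighg2c had differences of 1.41 ± 0.78 and 1.36 ± 0.80, and Ighm, of IgM, 0.84 ± 0.67 (limma adjusted p = 0.910 for all 4). WT replicate 3 was the highest of all tumours in Ighm, Ighg1, Ighg2b and Ighg2c, at 9.95, 10.78, 11.08 and 10.57. Ighg3 (0.03 ± 0.45) changed sign when single tumours were left out, and Ighe (-0.06 ± 0.10) was below the guide.

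**Figure D5:**
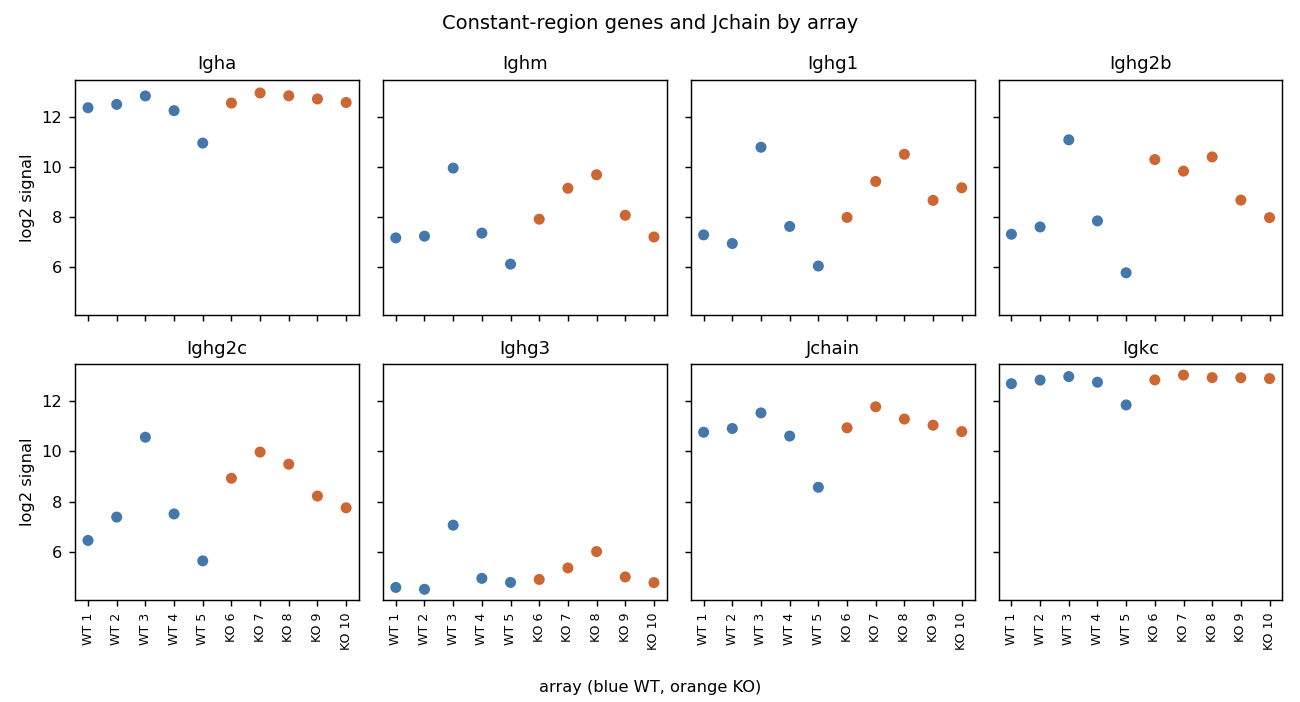
The log2 signal of 6 heavy chain constant genes, Jchain and the light chain gene Igkc is plotted for each array, WT in blue and KO in orange. Igha, Jchain and Igkc are lowest in WT replicate 5 (10.95, 8.57 and 11.85), and the IgG and IgM genes are highest in WT replicate 3.

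Over the 10 arrays, the 82 segments with a range of at least 1 correlated with Igha with a median r of 0.68 (0.60 without WT replicate 5 and KO replicate 7), with Jchain 0.70, with Ighm 0.72 and with Ighg2b 0.64. Of the 82, 55 correlated more closely with Igha than with Ighg2b. Ighv7-4 was the clearest on the other side, with r of 0.31 and 0.72. These choices were made after the values were seen, and the values are descriptions. In bulk samples they do not show which constant gene a segment was joined to.

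Plasma cell genes had small positive differences. Of 14 measured, 12 were positive with a median of 0.18, and 0 were higher or lower at unadjusted p under 0.05. Jchain, which encodes the joining chain of secreted IgA and IgM, had a difference of 0.69 ± 0.46 (SE), Derl3, of protein quality control in the endoplasmic reticulum, 0.64 ± 0.39, Xbp1, a regulator of secretion, 0.18 ± 0.11, and the regulator Irf4 0.60 ± 0.38. Sdc1, the surface marker CD138 that epithelial cells also carry, had -0.20 ± 0.11. The list score, the mean deviation of its members, was -0.64 to 0.38 in WT and -0.15 to 0.63 in KO, again with WT replicate 5 lowest and KO replicate 7 highest. Without WT replicate 3, 3 members were higher at unadjusted p under 0.05.

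B cell genes were highest in another tumour. The list score was 1.69 in WT replicate 3, where Ms4a1 (CD20), Cd79a, of the B cell receptor, and Cr2, of follicular B and dendritic cells, had 8.88, 8.93 and 7.66. The means of 7 of the 15 measured B cell genes were at or below the guide. In the other 9 tumours the score was between -0.72 in WT replicate 5 and 0.58 in KO replicate 7, the extreme tumours of the V segments. Of 15 measured, 10 were positive with a median of 0.04, with the smallest p in Fcrla (0.18 ± 0.18), Cd79a (0.69 ± 0.70), its partner Cd79b (0.44 ± 0.58) and Ebf1 (0.19 ± 0.36), and 0 were higher or lower at unadjusted p under 0.05. With 1 tumour left out, 0 to 9 members were higher (9 without WT replicate 3, the tumour with the highest score). The germinal centre and follicle list, with Bcl6 (0.22 ± 0.18), the chemokine Cxcl13 (0.38 ± 0.39), Mef2b (-0.15 ± 0.09) and Gcsam (-0.15 ± 0.22) first, also had its highest score in WT replicate 3 (0.93, against -0.32 to 0.19 elsewhere). Of its 9 members 0 were higher or lower. With 1 tumour left out, 0 to 4 were higher (4 without WT replicate 3) and 0 to 1 lower. The means of 4 of the 9, Mef2b and Gcsam included, were at or below the guide. The Ighv median was higher in KO replicates 7 and 8 than in WT replicate 3, so the tumour with most B cell RNA was not the one with most V segment RNA.

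The factors of V segment promoters gave small differences. Pou2af1, the coactivator of the octamer-binding proteins, had 0.36 ± 0.38 and Pou2f2, with a mean below the guide, 0.09 ± 0.18. Of these 2 measured genes, 0 were higher or lower at unadjusted p under 0.05. With 1 tumour left out, 0 to 2 were higher (2 without WT replicate 3). Of 7 genes of V(D)J joining and antibody gene mutation all differences were negative (median -0.07), with Lig4, a DNA ligase, at -0.18 ± 0.10, the kinase gene Prkdc at -0.12 ± 0.09, Rag1, of the recombinase, at -0.12 ± 0.11 and Dntt at -0.07 ± 0.06. None was lower at unadjusted p under 0.05, and with 1 tumour left out 0 to 2 were (2 without WT replicate 3). The means of 3 of these 7 genes, Rag1 and Dntt included, were at or below the guide, which limits what their differences show.

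Genes that carry IgA or keep and attract plasma cells gave 0 members at unadjusted p under 0.05 with all tumours. With 1 tumour left out, 0 to 2 survival and homing genes were higher (2 without KO replicate 10) and 0 to 1 lower (1 without KO replicate 6). Of the IgA transport genes, 0 to 1 were higher (1 without WT replicate 3). Pigr, the receptor that carries IgA through the epithelium, had 0.19 ± 0.17 (SE). Of 15 survival and homing genes 9 were positive (median 0.12). The means of 4 of the 15, Il5 included, were at or below the guide. The smallest p belonged to Ccl25 (-0.14 ± 0.07) and Cxcl12 (0.41 ± 0.25), both chemokines, Tnfsf13b, the survival factor BAFF (0.39 ± 0.24), and Il5 (-0.14 ± 0.10). The score of this list was lowest in WT replicate 5 (-0.36) and highest in KO replicate 8 (0.31).

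Genes of other cell types moved with the V segments in part. All 6 smooth muscle genes were positive (median 0.47), 0 at unadjusted p under 0.05, led by Acta2 (0.42 ± 0.20), Actg2 (0.53 ± 0.30), Tagln (0.37 ± 0.22) and Des (0.64 ± 0.42). With 1 tumour left out, 0 to 5 were higher (5 without KO replicate 10, the KO tumour with the lowest smooth muscle score). The smooth muscle score was lowest in WT replicate 5 (-0.87) and highest in KO replicate 7 (0.98), the extremes of the V segments, over ranges of -0.87 to 0.26 in WT and -0.71 to 0.98 in KO. Of 9 T cell genes 8 were positive and 3 were higher at unadjusted p under 0.05 (background 2.22% of all genes; 2 to 4 with 1 tumour left out), Il7r (0.84 ± 0.22), Trac (0.70 ± 0.22) and Cd3g (0.71 ± 0.26), with Cd3e at 0.37 ± 0.18 and scores of -0.48 to 0.09 in WT and -0.21 to 0.55 in KO. All 8 macrophage genes were higher at unadjusted p under 0.05 (background 2.22%), and 1 of them by at least 1.5-fold (background 0.368%). Among them were C1qc (0.46 ± 0.10), C1qb (0.60 ± 0.14), Itgax (0.37 ± 0.09) and Cd68 (0.55 ± 0.15), with scores of -0.33 to -0.04 in WT and -0.02 to 0.47 in KO. The 9 epithelial genes had scores of -0.24 to 0.18 in WT and -0.02 to 0.12 in KO, with Vil1 at 0.12 ± 0.10 and Krt20 at 0.22 ± 0.21. The limma adjusted p was 0.910 for each T cell and macrophage gene named. The lists were chosen with earlier results of these data known, so the counts of T cell and macrophage genes are descriptions. The part of these cell types in the V segment differences was not tested.

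The light chain V segments shared the extreme tumours. The 102 kappa V segments (Igkv) had a median difference of 0.98 with 93 positive, and 21 were higher and 0 lower at unadjusted p under 0.05 and 1.5-fold (background 0.368% and 0.0952% of all genes). They were read from the same arrays with earlier results known, so these counts are descriptions and nothing is read from them. The median deviation of the Igkv segments was -1.89 in WT replicate 5 and 1.21 in KO replicate 7. The kappa constant gene Igkc differed by 0.31 ± 0.18 (SE).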

How the data were processed

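The deposited values are log2 signals, with base 2 taken from their range. Per the submitters' processing notes, RMA (background correction, quantile normalization and probe summary) and Partek were used, while their versions and a genome build were not given in the sources used here. Equalised arrays cannot show a shift of all genes, and number of arrays limits the precision.

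Values were used as deposited. The platform annotation named 23111 genes, each with 1 probe set. KO was compared with WT over all of them by lmFit and eBayes of limma 3.58.1 in R 4.3.3, with Benjamini-Hochberg adjustment, after the code was tested on simulated data. Differences are KO minus WT with the SE of this fit, and SD is over 5 arrays. Array correlations ranged from 0.964 to 0.993 with 0 identical pairs.

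The segments and the 13 gene lists were chosen with earlier results of these data known. Segments were named by rule: the widest range in each family, the 5 highest and 5 lowest differences, the 5 widest gaps of the top array, the 3 lowest correlations with the rest, and those next to the threshold. Others are named because a count or the text singles them out, after their values were seen. All constant genes, the 4 smallest p of each other list, and Jchain, Igkc, Pou2f2 and Pou2af1 were named too. Some list members, among them Ighd, Iglc1, Iglc2, Iglc3, Iglc4, Pou2f1, Dclre1c, Fdcsp and Lck, were not analysed here, nor were promoter sequences.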

Additional observations from a re-analysis of the deposited data

Results flagged for a closer look

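In 74 sets of 5 arrays (a named segment or constant gene within 1 genotype), the highest or lowest tumour was tested for standing apart from the other 4, and 11 did so. Chance flags about 1 in 20 groups, but many of these segments were named for a wide range or a high array, so the count of 11 cannot be set against that rate and is a description.

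High tumours accounted for 6 of them. Ighv3-1 had 9.71 in WT replicate 3, against 5.12 to 6.34 in the other WT tumours, and Ighv8-5 had 8.69 there, against 2.66 to 3.58. Ighg3 had 7.06 in the same tumour, against at most 4.94. Ighv1-36 had 8.10 in KO replicate 6, against 3.17 to 4.48. Ighv11-1 had 9.42 in KO replicate 7, against 7.71 to 8.19. Ighv1-30 had 2.85 in WT replicate 5, against 2.66 to 2.70.

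Low tumours accounted for the others. In WT replicate 5, Ighv14-3 had 3.19, against 6.80 to 7.98, Ighv11-1 had 6.38, against 7.42 to 7.85, and Ighv1-36 had 2.64, against 3.03 to 3.17. Ighv16-1 had 3.53 in KO replicate 7, against 3.70 to 3.77. Ighe had 3.66 in KO replicate 8, against 4.03 to 4.15. The values of Ighv1-30, Ighv16-1, Ighe and Ighv1-36 in WT lie below the guide to background.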

How the results depend on the processing

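Leaving out 1 tumour at a time gave 63 to 174 genes of all kinds at unadjusted p under 0.05 and 1.5-fold (107 with all tumours, 49 at 2-fold and 1103 with no fold minimum), the lowest without KO replicate 7 and the highest without WT replicate 3. The count at adjusted p under 0.05, 0 with all tumours, was 0 to 2, and was 2 with dim genes left out, 1 with an intensity trend and robust estimation and 3 with unnamed probe sets included. The Ighv count of 21 was 10 to 42, and the Ighv median of 0.86 ranged from 0.58 (WT replicate 5 left out) to 1.21 (WT replicate 3 left out). Other scalings gave medians of 0.83 and 0.86. Of the named segments, 7 changed sign in 14 of 422 alternatives, among them Ighv1-61 (-0.10 without WT replicate 5). With 1 tumour left out, differences that changed sign spanned -0.168 to 0.505 for Ighg3, -0.106 to 0.0216 for Ighe, -0.259 to 0.0859 for Gcsam, -0.00564 to 0.333 for Krt20 and -0.0375 to 0.0747 for Cdh1. After quantile normalization Cdh1 was -0.0327 and Krt8 -0.0174. The cause was not tested. No paired analysis was possible because WT and KO samples share no replicate number in the labels. Signals of 24 segments had means at or below the guide, which limits what their differences show.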

Other observations

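The heavy chain J segments, which stand between V segment and constant region in the joined gene, had the same lowest tumour. Ighj1 was at 9.98, Ighj3 at 9.63 and Ighj4 at 10.25 in WT replicate 5, and their differences between KO and WT were 0.75 ± 0.41 (SE, n = 5 per genotype), 0.70 ± 0.49 and 0.57 ± 0.34, each with a limma adjusted p of 0.910. The D segment Ighd6-2, whose signal was near or below the guide, differed by 0.13 ± 0.17. The lambda V segments Iglv1, Iglv2 and Iglv3 were also lowest in WT replicate 5, with differences of 0.72 ± 0.59, 0.74 ± 0.72 and 0.81 ± 0.48.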
